A study of Homo sapiens with 5 samples.

Results

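The AP-1 family genes are FOS, FOSB, FOSL1, FOSL2, JUN, JUNB, JUND, ATF3 and BATF, which are 9 of the 20162 protein-coding genes of GENCODE release 44 placed on hg19. The rule names them by family and uses no peak values, and it was written with earlier results of these data known. A gene was given every peak that touched its body or the 50 kb on either side, which made 106 of 29781 peaks. Peak positions are given from the centre of the peak to the transcription start site (TSS) of the gene's canonical transcript, with negative values upstream in the direction of transcription.

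The peaks come from chromatin immunoprecipitation with antibodies against Nrf2 or HIF1α in BEAS-2B cells, an immortalised line of human bronchial epithelial cells. All cells had been serum-starved overnight, and they were then kept without inorganic arsenic (iAs), the control, or with 1 μM iAs, both for 6 h. Each antibody and condition had 1 library, so there were 4 libraries, and 1 library of input chromatin was not used here. The lists hold peak edges and no heights, and the read depth of the libraries is unknown. With 1 library per group there was no replicate check and no test between conditions. The main counts are therefore set beside the same count over all genes or all peaks. A count printed without such a value has no background here. Expression was not measured in these libraries, and the labelled cell type could not be checked against marker genes. The sample labels name antibodies from Santa Cruz for Nrf2 and Abcam for HIF1α, where the methods name Active Motif.

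AP-1 is a dimer of basic leucine zipper proteins. FOS proteins pair with JUN proteins, JUN proteins can also pair with each other, and ATF and BATF proteins join as further partners. The dimers bind the AP-1 site TGACTCA or the related cyclic AMP response element TGACGTCA, and several of the genes are induced within minutes to hours by growth factors, oxidants and metals through MAP kinases. Nrf2 belongs to a related class of zipper proteins, pairs with small MAF proteins and binds the antioxidant response element (ARE), whose core is TGACNNNGC. The letters TGACTCAGC hold an AP-1 site and an ARE core at once. HIF1α pairs with ARNT and binds ACGTG or GCGTG, called the HIF1α core here.

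The sequences that follow are hg19 reference sequence under peaks of the family genes, each written 5′ to 3′ on the strand named, with the element in capitals and 25 bases on either side. The first set is shown because TGACTCAGC occurred at 5 positions under the family's peaks, 4 at FOSL1 and 1 at FOSL2, and because 3 of the FOSL1 copies lay under peaks of both factors. The FOSL1 copies printed as upstream lay under peaks nearer to the start of C11orf68 than to that of FOSL1.
FOSL1, intron 1, chr11:65666832-65666890, plus strand, peaks of all 4 libraries: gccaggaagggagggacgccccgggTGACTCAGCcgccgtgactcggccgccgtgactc
FOSL1, upstream, chr11:65683277-65683335, plus strand, both Nrf2 libraries and HIF1α control: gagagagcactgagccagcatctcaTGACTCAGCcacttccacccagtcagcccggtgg
FOSL1, upstream, chr11:65683359-65683417, minus strand, the same 3 libraries: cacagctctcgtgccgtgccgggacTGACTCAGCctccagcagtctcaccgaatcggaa
FOSL1, upstream, chr11:65680554-65680612, plus strand, Nrf2 with iAs: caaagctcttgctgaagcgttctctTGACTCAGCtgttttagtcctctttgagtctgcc
FOSL2, upstream, chr2:28583962-28584020, plus strand, Nrf2 with iAs: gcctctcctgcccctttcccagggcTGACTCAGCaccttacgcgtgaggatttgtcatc

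The next set shows AP-1 sites under peaks distant from JUN and FOSB, where the letters after the site do not make an ARE core.
JUN, downstream, chr1:59219882-59219938, minus strand, both Nrf2 libraries: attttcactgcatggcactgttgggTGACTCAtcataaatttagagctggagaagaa
FOSB, upstream, chr19:45959127-45959183, minus strand, Nrf2 with iAs and HIF1α control: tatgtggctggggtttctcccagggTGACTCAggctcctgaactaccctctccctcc

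The cyclic AMP response element TGACGTCA was found at 3 positions, all under HIF1α peaks.
JUND, promoter, chr19:18392600-18392657, plus strand, both HIF1α libraries: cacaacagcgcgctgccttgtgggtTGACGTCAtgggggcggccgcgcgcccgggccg
FOSB, promoter, chr19:45970904-45970961, plus strand, HIF1α with iAs: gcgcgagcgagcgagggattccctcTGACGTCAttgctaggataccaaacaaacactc
ATF3, upstream, chr1:212732381-212732438, plus strand, both HIF1α libraries: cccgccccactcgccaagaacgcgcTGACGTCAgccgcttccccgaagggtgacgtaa

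The last set shows HIF1α cores under the HIF1α promoter peaks of FOS, JUN and FOSL2, whose values are described further on.
FOS, promoter, chr14:75745331-75745385, minus strand, both HIF1α libraries: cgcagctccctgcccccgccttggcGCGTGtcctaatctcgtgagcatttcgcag
JUN, promoter, chr1:59249937-59249991, minus strand, both HIF1α libraries: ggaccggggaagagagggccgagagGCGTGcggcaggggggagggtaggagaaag
FOSL2, promoter, chr2:28615345-28615399, plus strand, HIF1α with iAs: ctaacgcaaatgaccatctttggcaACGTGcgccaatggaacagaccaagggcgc

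Summed over the AP-1 family genes, peaks were more numerous with iAs than in control cells for both factors, although FOSL1 had 1 HIF1α peak fewer. Nrf2 had 8 peaks at the 9 genes in control cells and 24 with iAs, and HIF1α had 26 and 48. The lists as a whole also grew, from 3204 to 7743 peaks for Nrf2 and from 6008 to 12826 for HIF1α. Some of the family's peaks stood close together. With intervals less than 500 bp apart merged, the family had 8 and 21 Nrf2 peaks and 25 and 32 HIF1α peaks in control and iAs-treated cells. No count of the whole lists is given at that setting. The median family gene had 1 Nrf2 peak in control cells and 2 with iAs, against a median of 0 over all genes in both lists. For HIF1α the family median was 2 in control cells and 5 with iAs, against 0 and 1 over all genes. Many of the windows also held the starts of neighbouring genes. The family gene itself had the nearest TSS for 7 of 8 Nrf2 peaks in control cells, 16 of 24 with iAs, 17 of 26 HIF1α peaks in control cells and 31 of 48 with iAs. The windows of the 9 genes held a median of 1 TSS of another gene, where the median over all genes was 2.

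**Figure D1:**
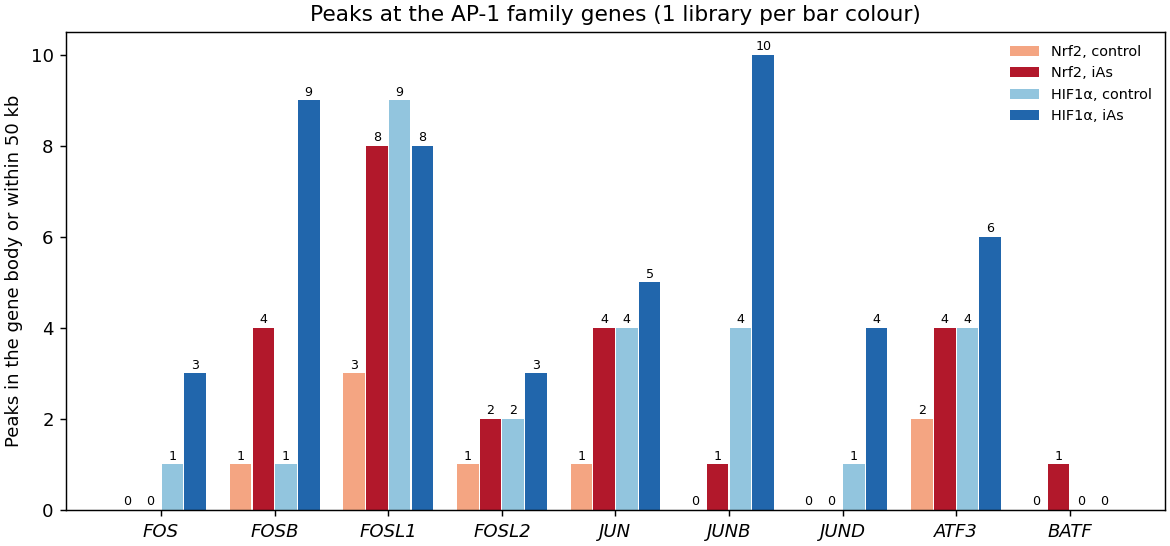
Number of peaks (y axis) in the body or the flanking 50 kb of each AP-1 family gene (x axis), 1 bar per library, with the count above the bar. FOSL1 had the most peaks in both Nrf2 libraries and in HIF1α control, JUNB had the most in HIF1α with iAs, and BATF had 1 peak in all.

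Nearly every member had a peak in the HIF1α lists. In control cells, 5 of 9 members had a Nrf2 peak within 50 kb, where the share over all genes was 20.0%, and 8 of 9 had a HIF1α peak, against 45.5%. With iAs the Nrf2 peaks reached 7 of 9 members, against 35.0% of all genes, and the HIF1α peaks 8 of 9, against 68.6%. FOSB, FOSL1, FOSL2, JUN and ATF3 had peaks in all 4 lists, as did 12.9% of all genes. JUNB lacked a peak only in Nrf2 control. FOS and JUND had HIF1α peaks in both conditions and no Nrf2 peak, a pattern of 20.1% of all genes. BATF had a Nrf2 peak with iAs and nothing in the other 3 lists, as did 1.97% of all genes.

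The factors differed in where their peaks lay. Within 1 kb of the TSS, Nrf2 had a peak at FOSL1 and ATF3 in control cells and at the same 2 genes with iAs, where the shares over all genes were 2.32% and 5.17%. HIF1α had a peak there at 7 of 9 genes in control cells, all but FOSB and BATF, against 16.7% of all genes. With iAs it was 8 of 9, all but BATF, against 42.6%. All 7 genes with a HIF1α peak at the TSS in control cells had one with iAs too, as did 88.9% of such genes in the whole list. Of the 48 HIF1α peaks with iAs, 25 (52.1%) had their centre under 3 kb from the TSS, 3 lay at 3 to 10 kb and 20 lay farther out. These distances are to the TSS of the family gene alone. Several of the 20 had their centre within 1 kb of another gene's TSS, such as that of VASP, MUS81, PRDX2 or DRAP1. Others had the family gene as the nearest TSS. Of the 24 Nrf2 peaks with iAs, 5 (20.8%) were under 3 kb, 0 at 3 to 10 kb and 19 beyond. In control cells the same bins held 11, 1 and 14 HIF1α peaks and 3, 0 and 5 Nrf2 peaks. Over all pairs of a gene and a peak in its window, the share under 3 kb was 29.8% for HIF1α with iAs, 11.4% for Nrf2 with iAs, 24.2% for HIF1α control and 11% for Nrf2 control. Most Nrf2 peaks lay away from the start of the family gene, as they did from the gene of the pair over all pairs. A peak at the start of 1 gene also counts as distant for each neighbour whose window holds it. The shares over pairs therefore do not give the distance of peaks to the nearest start.

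**Figure D2:**
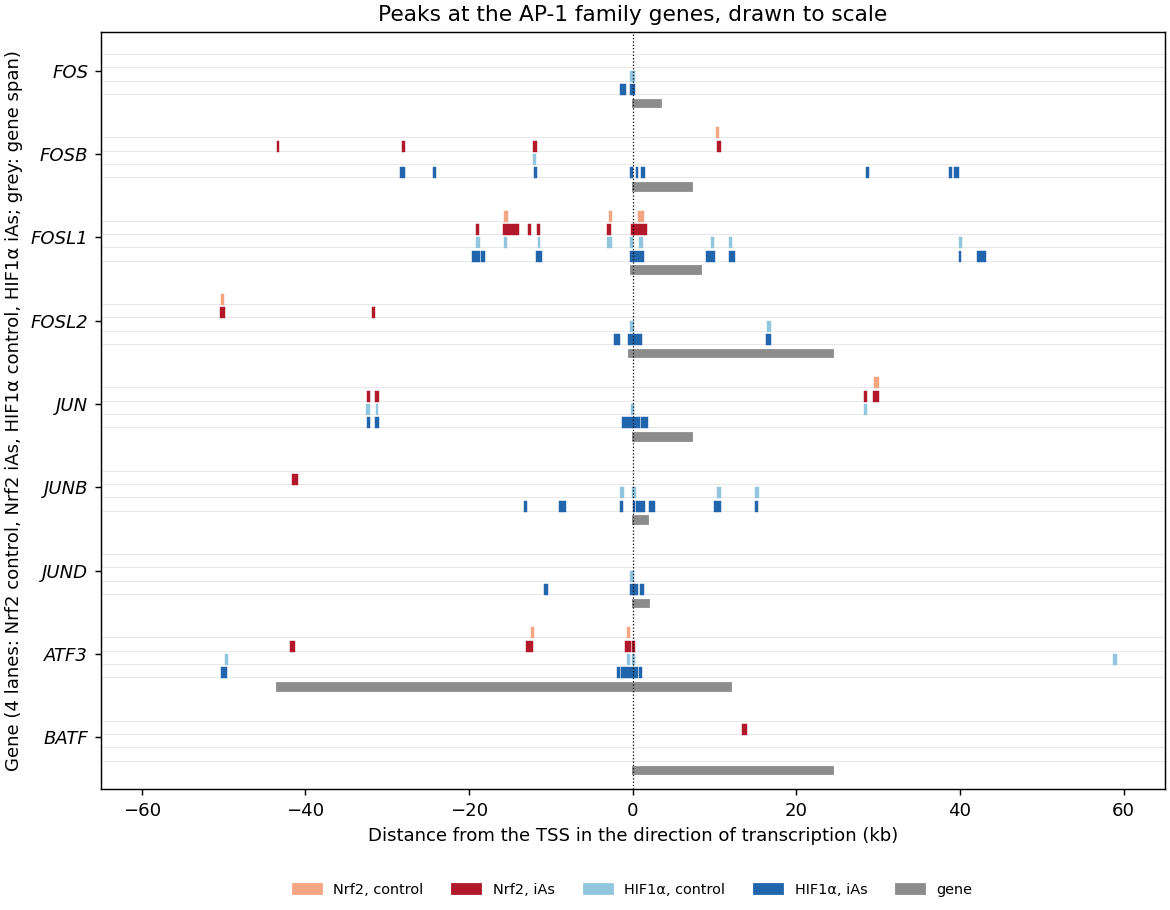
Map of the peaks at each AP-1 family gene (y axis, 1 lane per library and a grey bar for the gene) by distance from the TSS in kb (x axis, negative upstream). HIF1α peaks of iAs-treated cells lie within 1 kb of position 0 at 8 genes, though not over the TSS itself at FOSB, JUN and JUNB. Nrf2 peaks within 1 kb of position 0 occur at FOSL1 and ATF3.

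A peak of iAs-treated cells was counted as gained if not even 1 bp of it was shared with a control peak of its factor. By this measure 16 of 24 Nrf2 peaks of the family (66.7%) were gained, against 62.0% of the whole list. Of the HIF1α peaks 28 of 48 (58.3%) were gained, against 75.2%. At least 1 gained Nrf2 peak was present at 7 of 9 members, where 25.4% of all genes had one, and at least 1 gained HIF1α peak at 8 of 9, against 59.6%. With 1 bp as the least overlap, few control peaks of the family were lost. None of the 8 Nrf2 control peaks lacked an overlapping peak with iAs, against 5.37% of the list, and 4 of 26 HIF1α control peaks (15.4%) did, against 46.3%. These 4 lay at -2.88 kb and -15.6 kb of FOSL1, at 28.4 kb of JUN and at 58.9 kb of ATF3. When a reciprocal overlap of 50% was asked for instead, 6 of 8 Nrf2 and 18 of 26 HIF1α control peaks had no such partner with iAs. No share of the whole list is given at that setting, so these counts cannot be called high or low. At the 1 bp overlap, a Nrf2 peak of iAs-treated cells overlapped 3 of the 4, all but the one at ATF3, where 41.4% of all HIF1α control peaks lost with iAs overlapped such a Nrf2 peak.

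The peaks of the factors also overlapped one another at these genes. With iAs, 10 of 24 Nrf2 peaks (41.7%, Wilson 95% interval 24.5 to 61.2) overlapped a HIF1α peak, where 14.7% of all Nrf2 peaks did. Under a reciprocal overlap of 50% it was 4 of the 24, with no whole-list share given at that setting. In control cells, 4 of 8 Nrf2 peaks (50%, interval 21.5 to 78.5) overlapped one, against 27.7%. The intervals cover the counting of peaks only, and peaks at 1 gene share a locus. The 10 overlapping peaks were at FOSL1, FOSB, JUN and ATF3. When the 4 lists were merged, the family had 63 regions. HIF1α with iAs alone made 27 of them (42.9%, against 43.6% of all regions), HIF1α in both conditions made 13 (20.6% against 11.5%), and Nrf2 with iAs together with HIF1α in both conditions made 5 (7.94% against 1.78%). Other patterns had a lower share in the family. Nrf2 with iAs alone made 7 (11.1% against 16.7%), Nrf2 in both conditions 4 (6.35% against 9.24%) and HIF1α control alone 1 (1.59% against 7.61%). Regions present in all 4 lists were found at FOSL1 and ATF3, which made 2 of 63 (3.17%), against 1.59% of all regions.

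Among the FOS subfamily, whose proteins need a JUN partner to bind DNA, FOSL1 had the most peaks. FOSL1 (chr11:65659520-65668044, minus strand) encodes Fra-1, a FOS protein common in epithelial cells. Nrf2 had 3 peaks there in control cells and 8 with iAs, and HIF1α had 9 and 8. At least as many peaks were found at 1.53% of all genes for Nrf2 control and at 64 genes (0.317%) for Nrf2 with iAs. For HIF1α control 20 genes (0.0992%) had 9 or more peaks, and for HIF1α with iAs 3.42% had 8 or more. The window is crowded, with the TSSs of 9 other genes. The HIF1α peaks at 9.7, 11.9 and 39.95 kb in control cells lay on the starts of CCDC85B, FIBP and MUS81. Peaks at about -19 kb, of HIF1α in both conditions and Nrf2 with iAs, lay on the start of DRAP1. FOSL1 itself had the nearest TSS for 2 of 3 Nrf2 peaks in control cells and 3 of 8 with iAs. For HIF1α peaks the counts were 3 of 9 and 1 of 8. The shares of genes with as many peaks thus describe the whole window.

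The start and intron 1 of FOSL1 carried peaks in all 4 libraries. In Nrf2 control this was a peak of 542 bp centred at 970 bp, in intron 1. With iAs it was 1381 bp wide, wider than 97.7% of that list, and a second Nrf2 peak of 365 bp covered the TSS. HIF1α had peaks of 383 bp in intron 1 and 252 bp at -191 bp in control cells, and with iAs 1 peak of 1516 bp took in both places. The composite element in intron 1 printed above, 1002 bp downstream of the TSS, lay inside the intron 1 peak of every library. Farther upstream, at about -15 kb, Nrf2 had a peak of 416 bp in control and of 1387 bp in iAs-treated cells. HIF1α had 325 bp there in control cells and no peak with iAs. Both composite elements at -15443 and -15525 bp lay under these 3 peaks. The nearest TSS to these peaks was that of C11orf68, 3076 to 3565 bp from their centres. At -11.5 kb HIF1α was present in both conditions, 201 bp and 622 bp wide, and Nrf2 was added with iAs at 191 bp. C11orf68 had the nearest TSS there too.

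FOS (chr14:75745529-75748933, plus strand), the immediate early gene that gave the FOS subfamily its name, had no Nrf2 peak in either condition and no other TSS in its window. HIF1α had 1 peak of 435 bp over the TSS in control cells, at 75745207-75745641, centred at -107 bp. With iAs the peak was in place with nearly the same left edge, 474 bp wide and centred at -86 bp, and HIF1α peaks of 309 bp at -1158 bp and 188 bp at -1490 bp were added. FOS thus had 2 narrow peaks more with iAs, upstream of a promoter peak that kept its place. The HIF1α core printed for FOS, at -175 bp, lay under the promoter peak of both conditions.

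FOSB (chr19:45971253-45978437, plus strand), an immediate early gene like FOS, had the largest difference of the family in HIF1α peak count between the conditions. Nrf2 had 1 peak in control cells, 243 bp at 10.3 kb downstream, and 4 with iAs, at -43.45, -28.0, -12.0 and 10.5 kb. HIF1α had 1 peak in control cells, 233 bp at -12.1 kb, and 9 with iAs. Of the 9, 3 surrounded the start, with 239 bp at -229 bp, 189 bp in exon 1 at 463 bp and 349 bp in intron 1 at 1152 bp. A further 3 lay at 28.6, 38.7 and 39.5 kb, where the nearest starts were those of RTN2 and VASP. At -12.0 kb Nrf2 with iAs and HIF1α in both conditions met, and the AP-1 site printed for FOSB lay under the Nrf2 peak of 288 bp and the HIF1α control peak. The gene ERCC1 overlaps these positions on the annotation, so a peak there is at both genes.

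FOSL2 (chr2:28615315-28640184, plus strand) encodes Fra-2 and stands alone in its window. Nrf2 peaks stayed distant, 278 bp (control) and 453 bp (iAs) wide at -50.2 kb, and 310 bp wide at -31.7 kb with iAs alone. The composite element printed for FOSL2 lay in the latter. HIF1α covered the TSS in control cells with 362 bp and in iAs-treated cells with 1620 bp, a width above 99.7% of that list. A HIF1α peak in intron 3 was present in both conditions, 433 and 481 bp wide, and a peak of 638 bp at -1.99 kb was added with iAs. The start of FOSL2 was a HIF1α place in both conditions that was broader with iAs.

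The JUN subfamily proteins can bind DNA without a FOS partner, and each of the 3 genes has a single exon. JUN (chr1:59242517-59249720, minus strand) had no other TSS in the window. Nrf2 had 1 peak there without iAs and 4 with it, and HIF1α had 4 and 5. The Nrf2 peak seen in both conditions lay 29.7 kb downstream of the TSS, with a width of 507 bp in control and 560 bp in iAs-treated cells, over the AP-1 site printed above. Nrf2 gained peaks with iAs at 28.4, -31.3 and -32.4 kb. Each of these 3 positions already had a HIF1α control peak, 309, 194 and 305 bp wide. HIF1α stayed at both upstream positions with iAs and had no peak at 28.4 kb. Around the TSS HIF1α had 303 bp at -123 bp in control cells. With iAs it had 1241 bp at -639 bp, 694 bp at 441 bp and 754 bp at 1363 bp, the latter 2 in exon 1.

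JUNB (chr19:12902300-12904129, plus strand), a JUN protein that can also restrain JUN, had 0 and 1 Nrf2 peaks and 4 and 10 HIF1α peaks in control and iAs-treated cells. For HIF1α with iAs, 1.64% of all genes had 10 or more. The single Nrf2 peak, 575 bp at -41.4 kb, was nearest to the start of BEST2. HIF1α had 441 bp at -1395 bp and 383 bp at 103 bp in control cells, and both places had a narrower peak with iAs, 312 and 199 bp. Peaks of 355, 557 and 672 bp were added at 579, 1143 and 2323 bp, the last beyond the end of the gene. The annotated span of HOOK2 takes in JUNB, so these peaks are at both genes. The other 5 peaks of iAs-treated cells lay in or near HOOK2, PRDX2 and RNASEH2A, including 718 bp at the start of PRDX2, which encodes a peroxidase, where control cells had 344 bp.

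JUND (chr19:18390504-18392432, minus strand), the member of the subfamily that most cells express without stimulation, had no Nrf2 peak. HIF1α had 1 peak in control cells, 259 bp at -152 bp, and 4 with iAs. The promoter peak with iAs was 368 bp wide at -148 bp, and peaks of 335 bp at 303 bp and 356 bp at 1118 bp in the exon, and of 377 bp at -10.7 kb, were added. The TGACGTCA element of the JUND promoter, at -193 bp, lay under the promoter peak of both conditions. With iAs, HIF1α peaks thus lay on both sides of the JUND start and in its exon.

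ATF3 (chr1:212738676-212794119, plus strand) is a stress-induced partner that often represses its targets. Its Nrf2 peaks numbered 2 in control and 4 in iAs-treated cells, and its HIF1α peaks 4 and 6. The canonical TSS at 212782103 is internal to the annotated gene, since longer transcripts start upstream, so the Nrf2 peaks at -12.3, -12.65 and -41.6 kb are inside the gene span. At the promoter Nrf2 had 222 bp at -559 bp in control cells, and 591 bp at -651 bp with iAs, together with 213 bp at 25 bp over the TSS. HIF1α had 251 bp at -630 bp and 215 bp at 37 bp in control cells. With iAs a single HIF1α peak of 1315 bp, wider than 99.05% of that list, joined these places, and 4 narrower peaks of 214 to 283 bp stood at -1794, -1379, -1078 and 851 bp. The ATF3 promoter was, with FOSL1, the place where all 4 libraries met. The HIF1α peaks at -49.7 kb in control cells and -49.97 kb with iAs overlapped, and both held the TGACGTCA printed above.

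BATF (chr14:75988798-76013336, plus strand) encodes a small partner best known from lymphocytes. It had 1 peak in all, of Nrf2 with iAs, 507 bp wide in intron 2 at 13.6 kb. No peak in any of the 4 lists lay within 1 kb of its TSS. BATF was the member least covered in these lists.

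**Figure D3:**
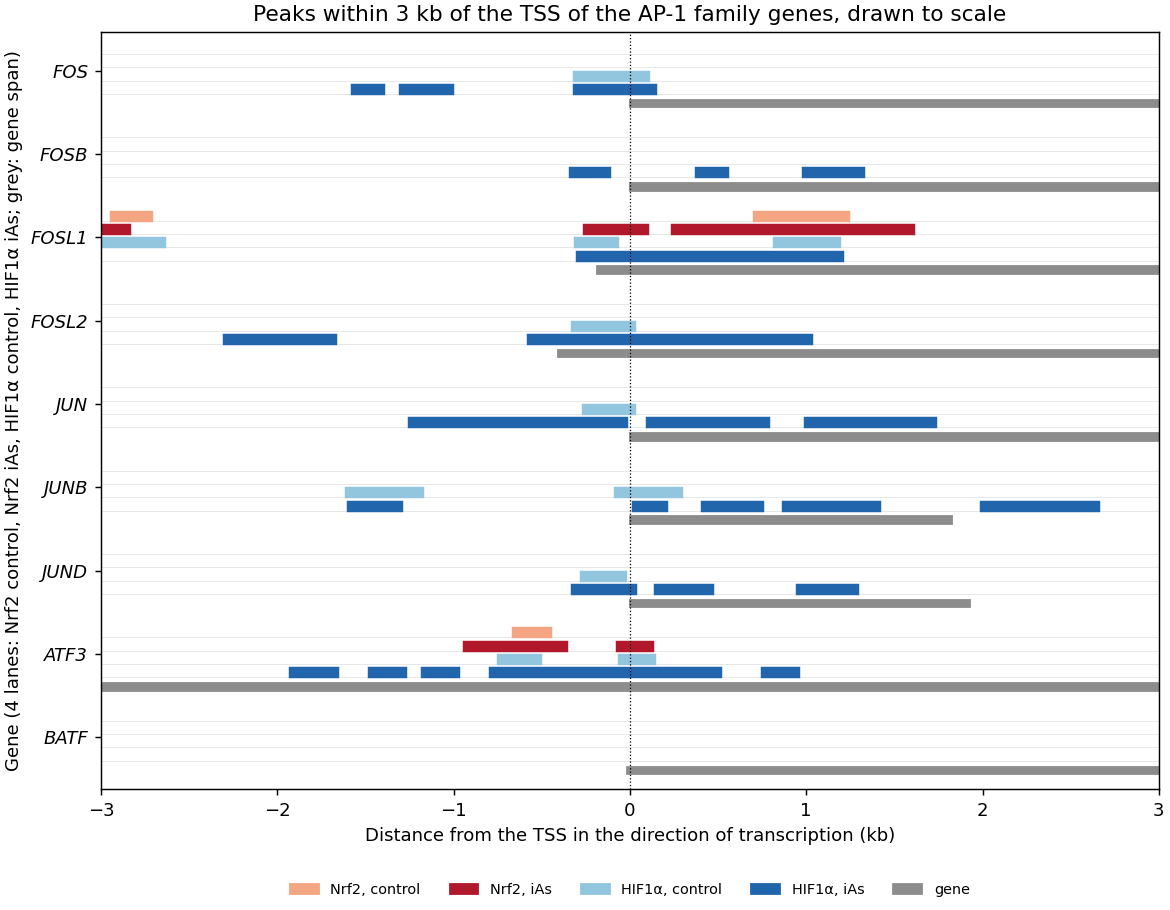
Map of the peaks within 3 kb of the TSS of each AP-1 family gene (y axis, 1 lane per library, grey bar for the gene) by distance from the TSS in kb (x axis). HIF1α peaks with iAs reach into the gene at all members but BATF, as HIF1α control peaks do at FOS, FOSL1, FOSL2, JUN, JUNB and ATF3, and Nrf2 peaks appear at FOSL1 and ATF3 in both conditions.

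The number of bases inside HIF1α peaks within 2 kb on either side of the TSS was larger with iAs at 8 of 9 genes. At JUN the sum was 303 bp for control and 2689 bp for iAs, a ratio of 8.88, and only 5 of 20162 genes, JUN included, had as much with iAs. At ATF3 it was 466 and 2252 bp (ratio 4.83), and 19 genes had as much. At FOSL2 it was 362 and 1953 bp (5.39), and 46 genes had as much. The 3 genes thus stood near the top of the whole list in iAs-treated cells, with control values of 303 to 466 bp. The control values of the other members ran from 0 to 824 bp. FOSL1 had 635 and 1516 bp (ratio 2.39), FOS 435 and 971 bp (2.23), JUND 259 and 1059 bp (4.09) and JUNB 824 and 1436 bp (1.74). FOSB went from 0 to 777 bp, and BATF 0 bp in both. Among the 3105 genes with HIF1α coverage in both conditions the medians were 315 bp (control) and 610 bp (iAs). Their median ratio was 1.74 (interquartile range 1.20 to 2.64), and 85.0% had more with iAs, so a larger value with iAs was the rule in the list and not particular to the family. For Nrf2 the coverage was 542 and 1746 bp at FOSL1 (ratio 3.22) and 222 and 804 bp at ATF3 (3.62), against a median ratio of 1.38 over 484 genes, and the other 7 members had 0 bp in both conditions.

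**Figure D4:**
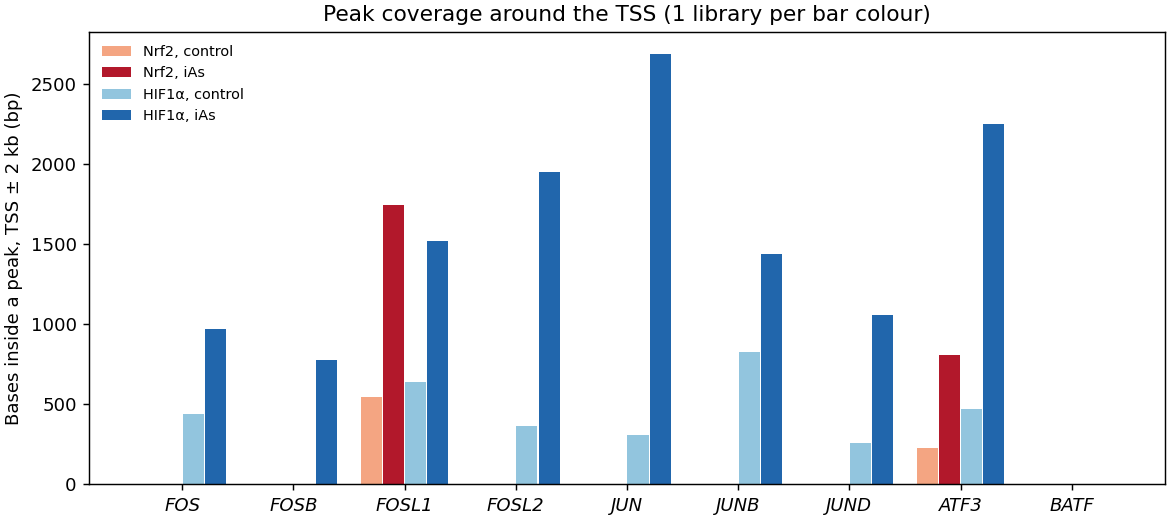
Bases inside a peak within 2 kb on either side of the TSS (y axis, bp) for each AP-1 family gene (x axis), 1 bar per library. JUN, ATF3 and FOSL2 had the most HIF1α coverage with iAs, at 2689, 2252 and 1953 bp, and Nrf2 bars stand at FOSL1 and ATF3 alone.

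The elements were counted on both strands within 100 bp of each peak centre. The AP-1 site TGACTCA was found in 5 of 8 Nrf2 control peaks of the family (62.5%, Wilson 95% interval 30.6 to 86.3), where 47.8% of that whole list had it. With iAs it was in 6 of 24 Nrf2 peaks (25%), against 38.3%. Among HIF1α peaks it was in 6 of 26 in control cells (23.1%), against 14.5%, and in 5 of 48 with iAs (10.4%, interval 4.53 to 22.2), against 2.39% of that list. These 5 peaks lay at FOSB, FOSL2 and JUNB, some of them nearest to the starts of ERCC1, VASP and HOOK2. The share with iAs was 6.25% for peaks within 10 kb, and 6.45% for peaks whose nearest TSS was the member. Family and list shares of the AP-1 site were lower with iAs than in control cells for both factors. The composite TGACTCAGC, which is also counted as an AP-1 site, was in 2, 3, 2 and 0 of the family's peaks in the order Nrf2 control, Nrf2 with iAs, HIF1α control and HIF1α with iAs. The list shares were 23.8%, 15.6%, 2.06% and 0.429%.

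The HIF1α core is short and common. It was within 100 bp of the centre in 11 of 26 HIF1α control peaks of the family (42.3%, against 47.7% of the list) and in 30 of 48 with iAs (62.5%, against 52.4%). Nrf2 peaks held it in 4 of 8 cases in control cells (50%, against 24.9%) and in 8 of 24 with iAs (33.3%, against 26.0%). Over whole peaks, TGACTCA occurred at 24 distinct positions at 6 members, FOSB, FOSL1, FOSL2, JUN, JUNB and ATF3, and the HIF1α core at 138 positions at 8 members. In the RefSeq promoter sequences of GRCh38.p14, which run from 250 bases before to 50 after a start, all 9 members matched by symbol. There TGACTCA was held by FOSL2 and by 4.95% of 35116 promoters, TGACGTCA by JUND and by 1.85%, and TGACTCAGC by no member and by 0.561%. The HIF1α core was held by BATF, FOS, FOSB, FOSL2, JUN and JUNB and by 48.4% of all. The starts of these sequences need not be the canonical TSSs used elsewhere here. Under the family's peaks, TGACTCA lay 5 bp from the canonical TSS of FOSL1 and a HIF1α core 7 bp from that of ATF3. The promoter sequences of FOSL1 and ATF3 did not hold these elements. A match is the presence of letters and not a measured site.

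**Figure D5:**
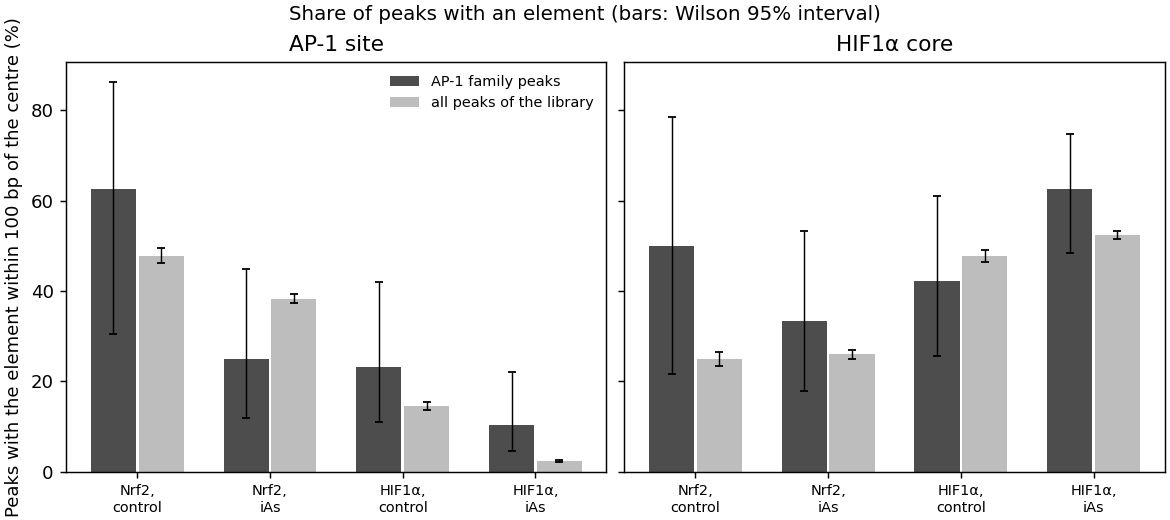
Share of peaks (y axis, %) with the AP-1 site TGACTCA (left) or the HIF1α core ACGTG or GCGTG (right) within 100 bp of the centre, for the AP-1 family peaks and all peaks of each library (x axis), with Wilson 95% intervals. The family's intervals are wide and take in the share of the whole list in every pair of bars but that of the AP-1 site in HIF1α with iAs, 10.4% against 2.39%. That family share was 6.25% within 10 kb and 6.45% with nearest-TSS peaks only.

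Peaks of the family were of ordinary width. The median width was 274 bp for Nrf2 control, 326 bp for Nrf2 with iAs, 307 bp for HIF1α control and 362 bp for HIF1α with iAs. The medians of the whole lists were 309, 333, 276 and 340 bp. The widest family peaks, 1620 bp at FOSL2, 1516 bp at FOSL1 and 1315 bp at ATF3, were all HIF1α peaks over a TSS with iAs, apart from the Nrf2 peaks of 1387 and 1381 bp at FOSL1.

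Other genes of the AP-1 system were searched in the same way. Over all genes, 20.0% had a Nrf2 peak within 50 kb in control cells and 35.0% with iAs, and 45.5% and 68.6% a HIF1α peak. Of 11 partner genes (ATF, BATF, CREB, JDP and MAF relatives), 6 had a Nrf2 peak within 50 kb in control cells and 7 with iAs, and 10 and 11 had a HIF1α peak. BATF2, ATF2, CREB5, MAFF, MAFG and MAFK had peaks in all 4 lists. MAFG, a small MAF protein and dimer partner of Nrf2, was the partner gene with the most peaks. It had 3 Nrf2 peaks in control cells and 5 with iAs, and 2 and 15 HIF1α peaks. Of these 15, 2 lay within 1 kb of its TSS, and the share of all genes with as many is not given. Of 9 upstream genes, the MAP kinases and the factors ELK1 and SRF that switch on FOS, 2 and 4 had a Nrf2 peak and 3 and 9 a HIF1α peak, with MAPK3 alone in all 4 lists. Of 12 AP-1 target genes, 5 and 9 had a Nrf2 peak, and 9 had a HIF1α peak in each condition. The 9 were not all the same genes, since MMP1 had one in control cells only and HBEGF with iAs only. MMP9, a matrix protease, PLAUR, the urokinase receptor, and DUSP1, a MAP kinase phosphatase, were the targets with peaks in all 4 lists. Within 1 kb of the TSS the HIF1α peaks went from 2 to 8 of the partners, 0 to 6 of the upstream genes and 1 to 6 of the targets between control and iAs, beside shares over all genes of 16.7% and 42.6%.

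The lists were checked at established targets of each factor within 10 kb. All 4 Nrf2 targets tried, NQO1, TXNRD1, GCLM and HMOX1, had a Nrf2 peak in both conditions, with 2 peaks at HMOX1 in control cells and 6 with iAs. Of 4 HIF1α targets, PDK1 and ANKRD37 had a HIF1α peak in both conditions, and CA9 and VEGFA had none in control cells and 2 each with iAs.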

How the data were processed

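Per the labels and the methods, the authors sequenced chromatin with antibodies against each factor, aligned reads, down-sampled tags within a group and called peaks. The processing notes name BWA and MACS2 2.1.0, while the methods name MACS or SICER. Which caller made each list is not given in the sources used here. The deposited files list peak edges on hg19 as base positions, without a height, score or p-value, and read depth is unknown. The authors' merged list (21088 regions) was not used, and the lists were merged anew (21086 regions).

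Positions were made 1-based, and the labels gave each list its antibody and condition. Genes and canonical TSSs came from GENCODE release 44 on GRCh37, without mitochondrial genes. All 9 members are named, chosen by name, and related genes are named when all 4 lists, or none, held a peak. Named besides these are MMP1 and HBEGF, which had a HIF1α peak in 1 condition only, and ELK1 and SRF, which describe their list. The members and lists of related genes were chosen with earlier results of these data known. Peaks were shared from an overlap of 1 bp. Elements were searched on both strands, and no sequence inside an annotated UTR is printed. Counts were made in Python 3.11.15 with NumPy 2.4.6, SciPy 1.17.1 and pysam 0.24.0, and were tested on simulated data. A recount with bedtools 2.31.1 found no gene of 20162 with another count. Shares carry Wilson 95% intervals, which cover counting only. Alternatives were other distances, nearest-TSS assignment, wider peaks, merged intervals, stricter or looser overlap, other TSSs and motifs in the whole peak.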

Additional observations from a re-analysis of the deposited data

How the results depend on the processing

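Of 111 values computed under another setting, 80 stayed within their counting interval or within 1.5 times the count and 31 moved. With 1 library per group no library could be left out, and no paired analysis was possible because each group had 1 library. Within 10 kb of the gene, by construction fewer peaks counted: Nrf2 control had 3 members with 5 peaks, and Nrf2 with iAs had 4 members with 9 peaks, of which 4 were gained and 4 overlapped HIF1α. HIF1α control had 16 peaks there, 1 of them lost with iAs. Within 100 kb, 7 HIF1α control peaks were lost. With peaks kept only where the member had the nearest TSS, 9 Nrf2 and 18 HIF1α peaks were gained, HIF1α control had 17 peaks with 2 lost, and HIF1α with iAs had 31. With the wider 50% of each list, Nrf2 control kept 3 peaks at 2 members and 1 member with a peak at the TSS. Nrf2 with iAs then had 11 peaks, 8 gained and 4 overlapping HIF1α, HIF1α control had 15 peaks with 8 lost, and HIF1α with iAs had 27. Merging intervals less than 500 bp apart left 12 gained HIF1α peaks, and a gap of up to 1 kb left 16. Under a reciprocal overlap of 50%, 6 Nrf2 and 18 HIF1α control peaks were lost and 4 Nrf2 peaks with iAs overlapped HIF1α. No share over all peaks is given for that overlap. In whole peaks the HIF1α core was in 58.3% of Nrf2 peaks with iAs, 65.4% of HIF1α control peaks and 75% with iAs. Apart from the settings that count fewer or merged peaks, or a stricter or looser overlap, by construction, the cause of a move was not tested. A TSS of any basic transcript, or 3 kb around the TSS, moved no count. Differences in read depth between the libraries could not be examined, and their part in the counts was not tested.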

Other observations

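FOSL1 had the most peaks of the family, and its 4 counts (3, 8, 9 and 8 in the order Nrf2 control, Nrf2 with iAs, HIF1α control and HIF1α with iAs) were compared with those of all other protein-coding genes by the sum of absolute differences over the 4 libraries. The nearest were SBF2 with counts of 3, 8, 6 and 8 and SHB with 3, 8, 7 and 7, both at a sum of 3, and APOLD1 with 3, 6, 9 and 6 at a sum of 4. PDE4DIP, with 4, 7, 8 and 6, was at a sum of 5, as was a gene model without a symbol, with 3, 9, 9 and 12.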
